A study of Mus musculus with 8 samples.

Results

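The genes described here make, remove or sense reactive oxygen species, or bind metals: the NADPH oxidases and their partner proteins, the transcription factor NRF2 with its inhibitor KEAP1, heme, glutathione and thioredoxin enzymes, the superoxide dismutases, catalase, glutathione peroxidases and peroxiredoxins, and the metallothioneins. A list of 42 genes was used, and its members were found by the gene name printed in the array files. Of these, 41 were named there, with 64 probes in all, and 33 had a probe bright enough to be tested, out of 14884 genes tested on the arrays. Of the 64 probes, 40 passed the filter on dim signals. The 8 named members without such a probe were Nox3, Cybb, Ncf1, Noxa1, Nqo1, Gclm, Gsr and Slc7a11. Gpx8 was not a name in the files, and the probe that its accession pairs with Gpx8 is given apart from the counts.

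Primary vascular smooth muscle cells from aortas of C57BL/6 mice were studied on 8 one-colour arrays of total RNA. In the AngII+CsA group 4 cultures were given 1 µM angiotensin II, a vasoconstrictor peptide, with 200 ng/ml cyclosporin A, which blocks the phosphatase calcineurin through cyclophilin. In the AngII group 4 cultures were given 1 µM angiotensin II alone. All cultures therefore had angiotensin II in medium with fetal bovine serum, cells without it were not analysed here, and the duration of treatment and the age of the mice were not given in the sources used here. The labels describe the 4 cultures of each condition as independent and number them 1 to 4, and arrays with the same number shared a slide. The question was which genes respond to cyclosporin in cells exposed to angiotensin II.

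NADPH oxidases pass electrons from NADPH to oxygen and release superoxide or hydrogen peroxide, and in vascular smooth muscle they are known as a source of oxidant signals downstream of the angiotensin receptor. Superoxide dismutases turn superoxide into hydrogen peroxide, which catalase removes. Glutathione peroxidases and peroxiredoxins also remove it, with the help of glutathione and thioredoxin. NRF2, held back by KEAP1, drives many of these enzymes through a short DNA motif called the antioxidant response element. Metallothioneins are small cysteine-rich proteins that bind zinc and copper, and their genes respond to metals, glucocorticoids and oxidants.

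Between 42.81% and 51.67% of the 43379 spots of an array were well above background, and no spot was saturated. Levels are given as log2 signal, the log2 of the processed signal relative to the 75th percentile of the same array, so that 0 is the level of that percentile. A level says nothing about another probe's level. Rcan1, the calcineurin feedback gene used as a check on cyclosporin, averaged 2.75 ± 0.69 with AngII+CsA and 5.01 ± 0.61 with AngII (SD, n = 4 each), and AngII+CsA was the lower in 4 of 4 pairs. Its limma adjusted p was 1.00 in the fit on the groups alone, which did not call it, and 0.0132 with the replicate number as a block. Of 10 smooth muscle markers, 8 were above background on every array, as were 4 of 7 adventitial fibroblast markers (Pdgfra, Pi16, Lum and Dcn). Of 10 macrophage markers, Cd68, Csf1r and Cd14 were above background on every array and 5 on none, among them Adgre1 and Itgam. Of 9 endothelial markers, Tek and Cldn5 were above background on every array and Pecam1, Cdh5 and Tie1 on none. Of 7 neutrophil markers with a probe, Mpo was above background on every array and Csf3r on none.

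No oxidase, antioxidant or metallothionein gene passed the test of AngII+CsA against AngII. Of the 33 tested members, 0 passed limma's test at an adjusted p of 0.05 in the fit on the groups alone, where 0 of 14884 genes did (0%), and 0 passed with the replicate number as a block, where 4 genes did (0.0269%). The smallest adjusted p of a member was 0.895 with the block. At an unadjusted p under 0.05 the counts were 0 members without the block (0.289% of all genes) and 2 with it, Gpx1 and Duox2 (5.26% of all genes). With normexp background correction and the block the count was 8 members (26.8% of all genes). AngII+CsA was on average lower than AngII for 18 members and higher for 15, with a median difference of -0.04 log2 beside -0.02 over all genes tested. The differences ran from -0.35 to 0.31, and 0 members differed by more than 0.5 log2 in either direction, against 2.61% of all genes. For 24 of the 33 members the 95% interval of the difference with the block lay inside 0.5 log2 on either side of 0. No share over all genes is given for this count, so it does not set the members apart. The intervals are not adjusted for the number of genes. Over all 33 the interval bounds reached -0.788 and 0.726, so changes larger than these were outside the interval of any member, and smaller ones were not detectable for all.

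**Figure D1:**
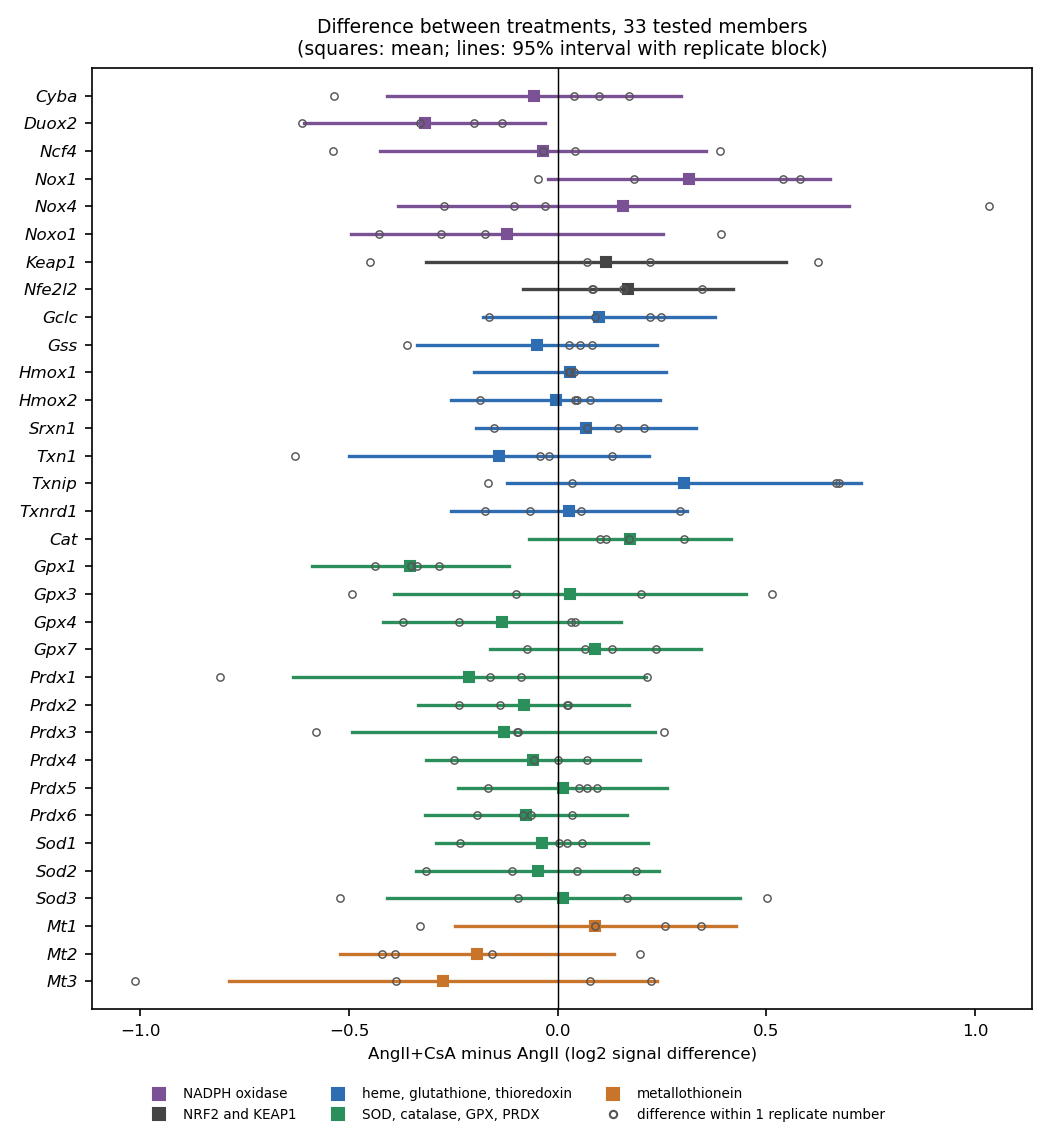
Difference between AngII+CsA and AngII cultures for the 33 tested members, in log2 signal, with positive values higher in AngII+CsA. Squares are means of 4 pairs, lines are 95% intervals from the fit with the replicate block, and open circles are the differences within each replicate number; the intervals of Gpx1 and Duox2 leave out 0, and the squares span -0.35 to 0.31.

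The pairs of arrays with the same number were then read gene by gene. AngII+CsA was lower in all 4 pairs for 2 members, Gpx1 and Duox2 (9.74% of all genes), and higher in all 4 pairs for 3 members, Cat, Nfe2l2 and Hmox1 (4.99% of all genes). The AngII+CsA and AngII arrays overlapped for every tested member, and over all genes 0.37% had groups that did not overlap. The median of the members' differences within a number was -0.16, 0.07, 0.02 and 0.03 for numbers 1 to 4.

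Gpx1, the abundant cytosolic glutathione peroxidase, had the lowest mean difference of the tested members. Its probe A_52_P684378, on the plus strand at chr9:108073279-108073338 of build mm7, is printed because the smallest member p rests on this 60-base stretch:
Gpx1 probe: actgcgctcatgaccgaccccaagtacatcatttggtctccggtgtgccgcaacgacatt
Gpx1 had log2 signals of 7.12, 6.52, 7.48 and 6.97 on the AngII+CsA arrays of replicates 1 to 4, and 7.45, 6.87, 7.92 and 7.25 on the AngII arrays. In each pair the AngII+CsA array was the lower, with differences of -0.44 to -0.28, while the arrays of replicate 3 were the highest and those of replicate 2 the lowest in each group, so the groups overlapped. The mean difference was -0.35, with a 95% interval of -0.589 to -0.117 in the fit with the block. Its p of 0.0101 in limma's fit with the block gave an adjusted p of 0.895, which did not pass.

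Among the oxidases, 6 of 10 members were tested. Nox1 encodes the catalytic subunit inducible in smooth muscle, and its probe A_51_P364714 lay on the minus strand at chrX:128812256-128812315 of mm7. The probe is printed because, with the main scaling, Nox1 spread more over the replicate numbers than any other tested oxidase:
Nox1 probe: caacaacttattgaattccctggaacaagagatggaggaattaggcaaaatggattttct
Nox1 had log2 signals of -1.10, -1.64, -2.10 and -3.12 with AngII+CsA, and -1.05, -1.83, -2.68 and -3.66 with AngII. Replicate 1 was the brightest and replicate 4 the dimmest array in each group, and the signal was above background on 4 AngII+CsA and 3 AngII arrays. The mean difference of 0.31 had an interval of -0.0237 to 0.651, and it took the opposite sign under 2 other settings. It also did so in 1 run with an array or number left out, at -0.138.

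Nox4, the constitutively active isoform that makes hydrogen peroxide, had 2 probes above background on every array. Probe A_51_P369311 read -1.66, -1.33, -1.54 and -1.18 with AngII+CsA, and -1.39, -2.36, -1.43 and -1.14 with AngII. Probe A_52_P617638 read -1.34, -2.82, -1.55 and -1.94 with AngII+CsA, and -2.02, -2.38, -1.81 and -2.13 with AngII. Their mean differences were close, 0.16 and 0.17, but in every pair they had opposite signs, so the within-pair direction of Nox4 depended on the probe. On A_51_P369311 the pair of replicate 2 differed by 1.03 log2 and the other pairs by -0.27 to -0.03.

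Duox2, a dual oxidase that makes hydrogen peroxide, had -0.94, -0.72, -1.11 and -0.70 log2 with AngII+CsA, and -0.32, -0.52, -0.78 and -0.56 with AngII. AngII+CsA was the lower array of every pair, and the groups overlapped. The difference of -0.32 had a block interval of -0.608 to -0.0307 and an adjusted p of 0.895 in limma, so it did not pass. Cyba, the p22phox subunit that stabilises the catalytic subunits, had 4.98, 4.87, 5.81 and 5.35 with AngII+CsA, and 5.52, 4.77, 5.64 and 5.32 with AngII. Its groups overlapped, with a difference of -0.06. Noxo1, the organiser of NOX1 complexes, and Ncf4, a phagocyte oxidase subunit, differed by -0.12 and -0.04, and Noxo1 was above background on 3 arrays of each group. The phagocyte subunits Cybb and Ncf1, with 2 probes each, were dim: Cybb was above background on no array, and Ncf1 on 1 AngII+CsA and 1 AngII array. Nox3, the inner ear isoform, and Noxa1, the activator of NOX1, were above background on no array.

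Nfe2l2, which encodes NRF2, had 6.25, 5.53, 5.79 and 5.25 log2 with AngII+CsA, and 6.16, 5.37, 5.44 and 5.17 with AngII. AngII+CsA was the higher array in every pair by 0.08 to 0.35 log2, and the arrays of replicate 1 were the brightest of each group. The mean difference was 0.17 (block interval -0.0836 to 0.419), the other probe above background gave 0.15, and neither fit called it. Keap1, the adaptor that targets NRF2 for degradation, had 3.48, 2.98, 3.74 and 3.42 with AngII+CsA, and 2.85, 2.76, 4.19 and 3.35 with AngII. AngII+CsA was higher in 3 pairs and lower in the pair of replicate 3, with a mean difference of 0.12.

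Hmox1, the inducible heme oxygenase and a classic NRF2 target, had the most even differences within pairs of the tested members. It had 5.33, 4.08, 4.42 and 4.10 log2 with AngII+CsA, and 5.30, 4.06, 4.39 and 4.06 with AngII. The 4 within-pair differences lay between 0.03 and 0.04, while the arrays of replicate 1 stood above the other 6 arrays. The mean difference was 0.03, with a block interval of -0.199 to 0.26. Hmox2, the constitutive heme oxygenase, differed by -0.01.

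In the glutathione and thioredoxin systems, Gclc, the catalytic subunit of glutathione synthesis, differed by 0.10 and Gss, glutathione synthetase, by -0.05. Txn1 (thioredoxin), Txnrd1 (its reductase) and Srxn1 (sulfiredoxin, which repairs peroxiredoxins) differed by -0.14, 0.03 and 0.07. A dimmer Srxn1 probe, A_51_P330125, was above background on 3 AngII+CsA and 2 AngII arrays and differed by -0.34, so the direction of Srxn1 depended on the probe. Txnip, the thioredoxin inhibitor that also restrains glucose uptake, had 2.19, 1.87, 2.23 and 1.87 with AngII+CsA, and 1.52, 1.21, 2.19 and 2.03 with AngII. The differences within pairs were 0.67, 0.67, 0.03 and -0.17, so that replicates 1 and 2 stood apart from the others, and the groups overlapped. The mean difference was 0.30 (block interval -0.122 to 0.726), and the other Txnip probe gave 0.13. Nqo1, the quinone reductase used as a standard NRF2 readout, was above background on no array. Gclm, the modifier subunit of glutathione synthesis, was above background on 0 AngII+CsA and 1 AngII array, and Gsr, glutathione reductase, had 1 of 3 probes above background, on 0 AngII+CsA and 2 AngII arrays. Slc7a11, the cystine importer that feeds glutathione synthesis, had 4 probes, and 1 of them was above background, on 1 AngII+CsA array and 0 AngII arrays.

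Among the enzymes that remove superoxide and peroxide, all 14 members named in the files were tested. Cat, the peroxisomal catalase, had 3.53, 2.81, 2.59 and 2.40 with AngII+CsA, and 3.43, 2.70, 2.42 and 2.10 with AngII. AngII+CsA was the higher array in each pair by 0.10 to 0.30 log2, the groups overlapped, and the mean difference of 0.17 (block interval -0.0693 to 0.414) was not called. The superoxide dismutases Sod1 (cytosolic), Sod2 (mitochondrial) and Sod3 (extracellular) differed by -0.04, -0.05 and 0.01. Gpx3 (the secreted glutathione peroxidase), Gpx4 (which reduces lipid peroxides) and Gpx7 (an endoplasmic reticulum peroxidase) differed by 0.03, -0.13 and 0.09.

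Prdx1, a cytosolic peroxiredoxin and NRF2 target, had 7.67, 7.14, 7.68 and 6.60 with AngII+CsA, and 8.48, 7.31, 7.46 and 6.69 with AngII. The pair of replicate 1 held most of its mean difference of -0.21, with -0.81 log2 within that pair, and the pair of replicate 3 went the other way. The remaining peroxiredoxins, Prdx2 to Prdx6, differed by -0.13 to 0.01, and the 3 Prdx2 probes gave -0.08, -0.01 and -0.02. The probe that its accession pairs with Gpx8, an endoplasmic reticulum peroxidase, carried a clone name in the files. It read 6.14, 5.56, 5.90 and 5.16 with AngII+CsA, and 6.80, 5.79, 5.89 and 5.26 with AngII, a difference of -0.24 that was not called.

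The metallothioneins Mt1 and Mt2, the widely expressed forms, were bright, and Mt3, the form best known from brain, was dim but above background on every array. The Mt1 value is the mean of 10 spots of probe A_51_P294979, on the plus strand at chr8:92769155-92769214 of mm7, and the probe is printed because it was the most even over replicate numbers of the probes tested for the members:
Mt1 probe: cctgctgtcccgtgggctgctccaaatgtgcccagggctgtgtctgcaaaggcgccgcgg
This Mt1 probe had 6.65, 6.57, 6.47 and 6.70 log2 with AngII+CsA, and 6.39, 6.48, 6.80 and 6.36 with AngII. All 8 arrays lay close together, AngII+CsA was the higher in 3 pairs, and the mean difference was 0.09. A dimmer Mt1 probe, A_52_P423810, also above background on every array, had -1.98, -1.44, -1.61 and -1.25 with AngII+CsA, and -1.87, -1.36, -1.80 and -0.98 with AngII. Its difference was -0.06, so the direction of Mt1 depended on the probe. Mt2 had 9.69, 9.24, 8.98 and 9.17 with AngII+CsA, and 10.11, 9.40, 9.37 and 8.97 with AngII. AngII+CsA was the lower array in 3 pairs, the arrays of replicate 1 were the brightest of each group, and the difference was -0.19 (block interval -0.521 to 0.136). Mt3 had -1.72, -1.39, -1.45 and -1.37 with AngII+CsA, and -1.80, -1.61, -0.44 and -0.98 with AngII. The AngII arrays of replicates 3 and 4 were the highest, and the difference was -0.28.

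Further genes of the same pathways gave no call either. None of 10 tested oxidase partners and nitric oxide synthases, 20 NRF2 targets, 7 NRF2 regulators, 16 thiol enzymes and 7 metal genes passed in either fit. Over all genes 0% passed without the block and 0.0269% with it, so the lack of calls does not set these lists apart. The median differences of these lists were -0.00, -0.04, 0.04, -0.07 and 0.02 log2. The 2 genes with the smallest p among the oxidase partners and synthases were Nos2, the inducible nitric oxide synthase, and Duoxa1, a dual oxidase maturation factor, at 0.38 and -0.18. Of the NRF2 targets they were Blvra, biliverdin reductase, and Cbr3, a carbonyl reductase, at -0.31 and -0.18. Of the NRF2 regulators they were Cul3, the ubiquitin ligase scaffold that works with KEAP1, and Mafk, a small MAF partner of NRF2, at 0.23 and 0.24. Of the thiol enzymes they were Txnrd3, a thioredoxin reductase, and Gpx2, the gastrointestinal glutathione peroxidase, at -0.24 and -0.32. Of the metal genes they were Mt4, an epithelial metallothionein, and Cp, ceruloplasmin, at -0.34 and 0.19. Their smallest limma adjusted p, with the block, was 0.895.

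The same genes were then read for their spread over the replicate numbers. The range of the 4 number means exceeded the difference between treatments for 33 of 33 tested members, as it did for 98.9% of all genes. A range over the number means tends to exceed a difference between group means even without any effect, so this comparison does not set the members apart. The median range was 0.755 log2 for the members and 0.904 for all genes. By limma's F test of the number terms, with Benjamini-Hochberg adjustment over all genes, 21 of the 33 members differed among numbers (68.5% of all genes). A range over 1 log2 was reached by 10 members (42.4% of all genes). The members called were 63.6% of those tested, and this share moved with the scaling and the probe. With every probe as its own row, 24 members had a probe called (66.9% of all probes kept). The tested probes of Prdx2 and Txnip were not called, but their other probes above background were. Over all probes the limma adjusted p of these was 0.0118 and 0.0169 for Prdx2, and 0.0192 for Txnip. Each number is both a culture in each group and a slide, and these cannot be told apart.

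**Figure D2:**
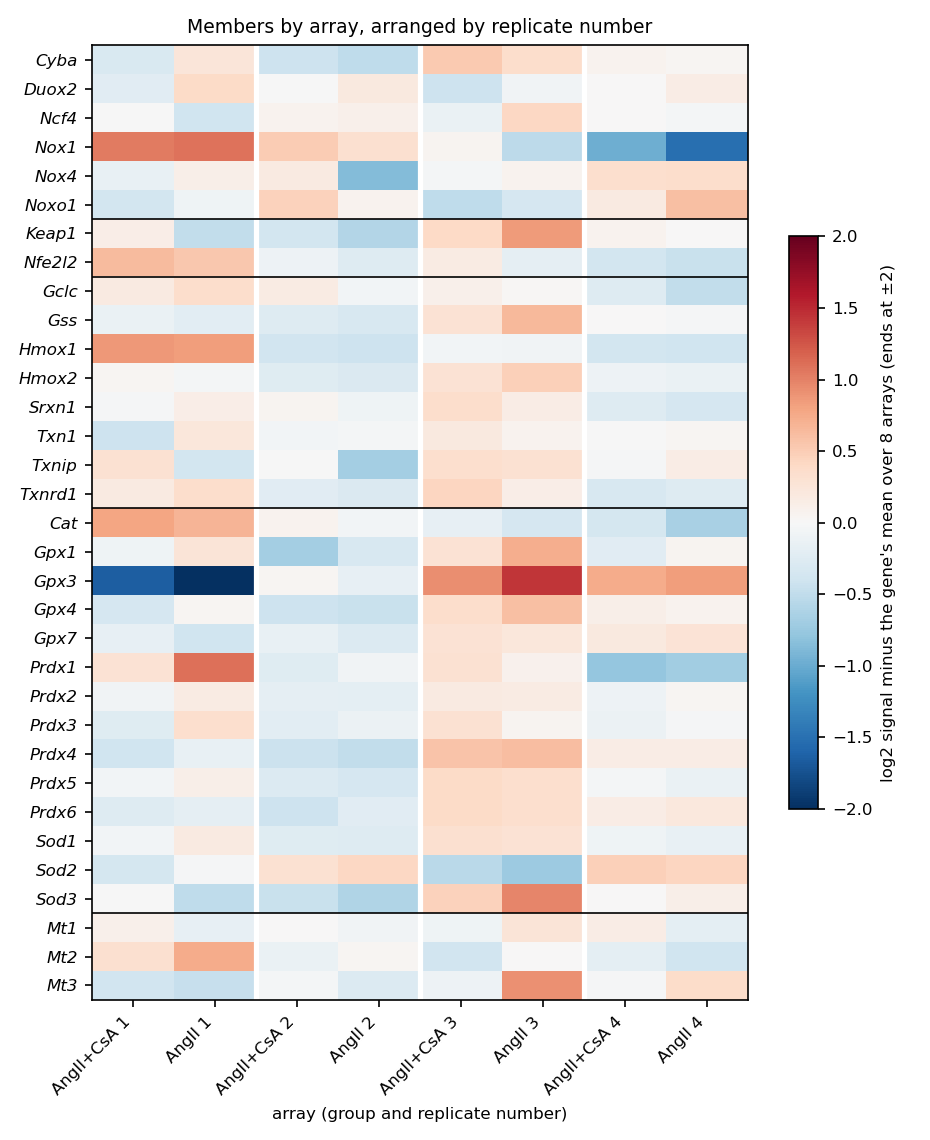
Log2 signal of each tested member on the 8 arrays, after subtraction of the gene's mean over the arrays, with columns in pairs of replicate numbers and rows grouped by role. The colour scale ends at 2 log2 on either side of 0. The 2 columns of a pair look alike, and in number 1 Nox1, Hmox1, Nfe2l2, Cat and Mt2 are high and Gpx3 is low.

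Number 1 carried the highest level of 6 of the 21 members called, namely Cat, Hmox1, Mt2, Nfe2l2, Nox1 and Prdx1. Number 3 carried the highest level of 13, among them Cyba, Keap1, Gpx1, Gpx3, Gpx4, Sod3 and 3 peroxiredoxins, and number 4 that of Noxo1 and Sod2. Number 2 was highest for no member called and lowest for 11. Over all genes called, the highest number was 1 for 29.9%, 2 for 12.6%, 3 for 34% and 4 for 23.4%, and the lowest was 1 for 38.6%, 2 for 18.2%, 3 for 15.3% and 4 for 27.9%.

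These calls depended partly on how the arrays were scaled. With quantile normalization 12 members differed among numbers (36.4%, against 55.4% of all genes), and with the authors' own values 12 did (36.4%, against 54.7% of all genes). With normexp background correction 18 did (54.5%, against 56.2% of all genes), and with median scaling 26 did (78.8%, against 77.9% of all genes). Under each of 5 ways of scaling and background correction 12 members were called (42.3% of all genes). Leaving out 1 number with its 2 arrays gave 20 members without number 1 (62.4% of all genes), 10 without number 2 (53.5%), 11 without number 3 (54%) and 14 without number 4 (44.1%). The 9 members lost over the 5 scalings were Cyba, Gpx1, Gpx4, Gss, Hmox2, Keap1, Noxo1, Prdx5 and Txnrd1, of which 8 had been highest in number 3. Of the 12 that stayed, Cat, Hmox1, Mt2, Nfe2l2, Nox1 and Prdx1 were highest in number 1 under all 5. Gpx3, Prdx4 and Sod3 were highest in number 3 under all 5, and Gpx7, Prdx6 and Sod2 changed places. Number 1 was the highest under all 5 for 35.3% of all genes called under each.

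Gpx3 had the widest spread of the members. It had 0.55, 2.25, 3.14 and 2.95 log2 with AngII+CsA, and 0.04, 2.05, 3.63 and 3.05 with AngII. Both arrays of replicate 1 lay below all others. The range of its number means was 3.09 log2, wider than 98.9% of all genes, with an adjusted p of 0.00177 in limma's F test. Nox1 had a range of 2.31 log2, wider than 96.0% of all genes (adjusted p 0.00213 in limma). Its number means were -1.08, -1.74, -2.39 and -3.39 for numbers 1 to 4. The AngII array of replicate 4, at -3.66, lay below that array's lowest signal above background, -3.43. With normexp background correction the Nox1 means were -0.584, -0.826, -0.831 and -1.202. Those of Cyba were then 4.505, 3.991, 4.794 and 4.585, a wider spread. The width of the Nox1 spread and its rank among the oxidases therefore depended on the processing.

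Hmox1, Cat, Nfe2l2, Prdx1 and Mt2 had ranges of 1.25, 1.23, 0.993, 1.43 and 0.836 log2 over the number means, with number 1 the highest. The arrays of number 1 stood above the other 6 under all 5 scalings for Cat, Hmox1, Mt2, Nfe2l2 and Nox1, and under 3 of 5 for Prdx1. This holds for the tested probes. On the other bright Nfe2l2 probe, A_51_P411271, the mean of number 1 was again the highest, but the AngII+CsA array of replicate 2 at 4.19 stood above the AngII array of replicate 1 at 4.17. Without replicate number 1, Hmox1, Mt2 and Nfe2l2 were not called among the remaining numbers, with limma adjusted p of 0.0658, 0.437 and 0.0841. Nox1, Cat and Prdx1 were still called then, with limma adjusted p of 0.0131, 0.0387 and 0.0166. Without number 4, Prdx1 was not called, with a limma adjusted p of 0.0874. Members picked as highest in number 1 lose range by construction when that number is left out, and fewer arrays remain. A lost call therefore does not show that the remaining numbers were alike. The tested Mt1 probe was at the other end, with a range of 0.118 log2, narrower than all but 0.128% of genes, and a limma adjusted p of 0.917. The evenness of Mt1 depended on the probe, since the number means of A_52_P423810 were -1.92, -1.40, -1.71 and -1.12, a range of 0.808 log2 with a limma adjusted p of 0.0219 over all probes. It also depended on the scaling, since after quantile normalization the number means of the tested probe were 13.13, 13.4, 12.97 and 13.24 log2, though it was called under none of the 5 scalings.

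**Figure D3:**
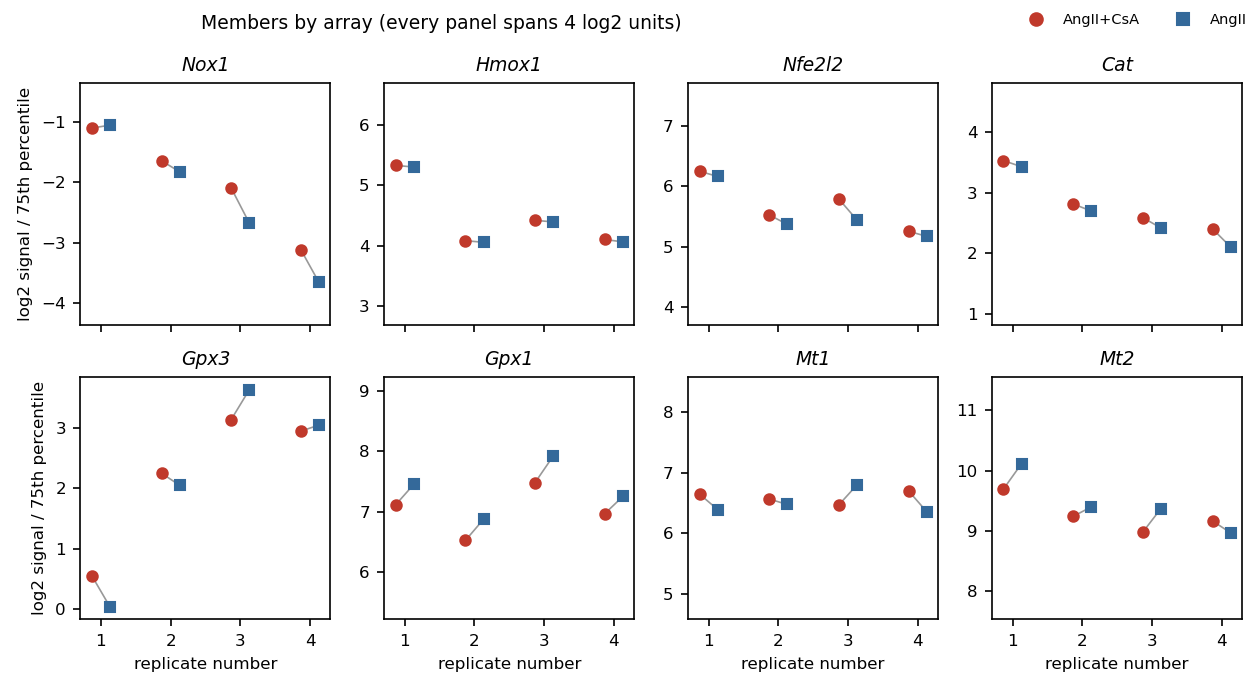
Log2 signal of Nox1, Hmox1, Nfe2l2, Cat, Gpx3, Gpx1, Mt1 and Mt2 on each array, by replicate number, with AngII+CsA as circles to the left of AngII as squares, lines joining arrays of the same number, and each panel spanning the same number of log2 units. Nox1, Hmox1, Nfe2l2, Cat and Mt2 are brightest in number 1, Gpx3 is dimmest there, Gpx1 is lower with AngII+CsA in every pair, and the tested Mt1 probe lies between 6.36 and 6.80 throughout.

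The summed levels of smooth muscle and fibroblast markers also set replicate 1 apart. The summed level of the 10 smooth muscle markers, on a linear scale relative to the 75th percentile, was 249 on the AngII+CsA array and 317 on the AngII array of replicate 1. On the other arrays it ran from 770 to 1280 with AngII+CsA and from 744 to 1450 with AngII. The summed level of the 7 adventitial fibroblast markers, of which Cd34 was above background on no array, was 1150 with AngII+CsA and 1200 with AngII in replicate 1. On the other arrays it was 344 to 689 with AngII+CsA and 301 to 784 with AngII. In each group, replicate 1 thus had the lowest smooth muscle sum and the highest fibroblast sum. A sum on a linear scale is weighted to the brightest markers, and single markers are not given here. The macrophage markers summed to 6.77 to 11 with AngII+CsA and 7.45 to 12 with AngII, the neutrophil markers to 0.469 to 0.834 and 0.523 to 0.876, and the endothelial markers to 0.778 to 1.03 and 0.951 to 1.26. In each group the macrophage sum was highest and the endothelial sum lowest in replicate 3, and the neutrophil sums had no order shared by the groups. The part of cell composition in the members' differences among numbers was not tested. In these bulk samples fewer cells of a type and less RNA per cell cannot be told apart.

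**Figure D4:**
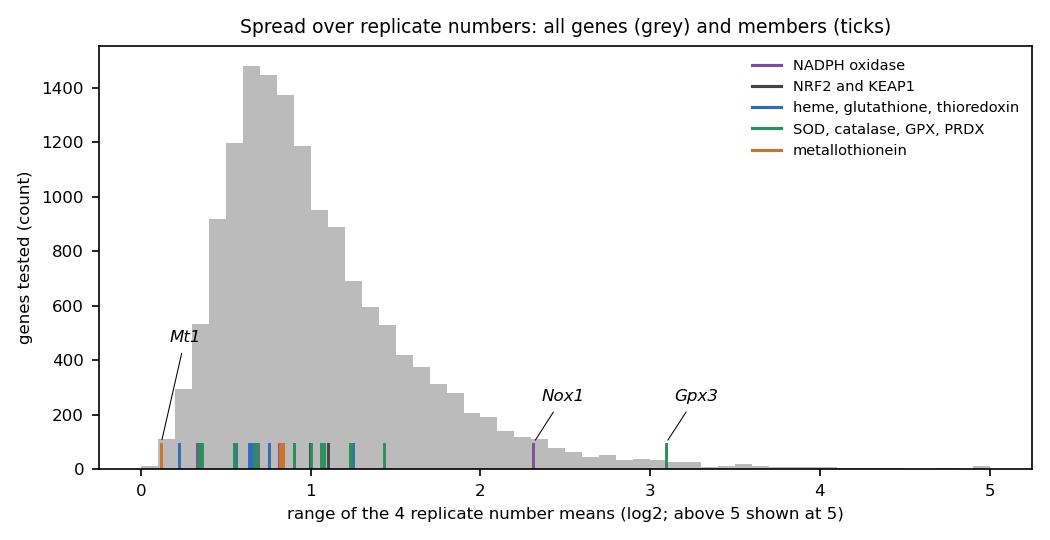
Range of the 4 replicate number means in log2 signal, as a histogram over all genes (count of genes on the vertical axis, ranges over 5 drawn at 5), with the 33 tested members as coloured ticks. The tested Mt1 probe at 0.118 lies at the low edge, and Nox1 at 2.31 and Gpx3 at 3.09 lie in the upper tail.

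Of the 6 members highest in number 1, 5 had a promoter in the RefSeq table of GRCm38.p6, and 3 of these held the antioxidant response element core TGACNNNGC, on either strand, in the 250 bases before the start. Both the set of 6 and the motif were chosen after the values were seen, so the 3 of 5 is a description and no test of enrichment. Of the 32851 promoters there, 10.2% held the core, and 13.8% of 9535 tested genes with a promoter did. Of the 36 members matched, 6 held it (16.7%), namely Nfe2l2, Gclm, Txnrd1, Sod1, Prdx1 and Mt2. The 3 promoters are printed because they belong to members with their highest mean in number 1, with the core in capitals. Nfe2l2 lies on the minus strand at chr2:75704664-75704913, Prdx1 on the plus strand at chr4:116685349-116685598, and Mt2 on the plus strand at chr8:94172368-94172617.
Nfe2l2 promoter: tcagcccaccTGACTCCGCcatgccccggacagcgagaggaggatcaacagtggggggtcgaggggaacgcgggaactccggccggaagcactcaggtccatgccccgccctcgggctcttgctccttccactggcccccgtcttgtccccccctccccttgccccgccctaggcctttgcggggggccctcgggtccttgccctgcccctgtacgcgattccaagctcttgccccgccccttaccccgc
Prdx1 promoter: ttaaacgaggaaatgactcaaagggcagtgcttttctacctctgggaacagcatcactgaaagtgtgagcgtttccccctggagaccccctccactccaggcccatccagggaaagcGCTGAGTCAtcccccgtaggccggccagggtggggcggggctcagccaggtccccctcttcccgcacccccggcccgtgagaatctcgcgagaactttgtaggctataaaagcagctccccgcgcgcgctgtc
Mt2 promoter: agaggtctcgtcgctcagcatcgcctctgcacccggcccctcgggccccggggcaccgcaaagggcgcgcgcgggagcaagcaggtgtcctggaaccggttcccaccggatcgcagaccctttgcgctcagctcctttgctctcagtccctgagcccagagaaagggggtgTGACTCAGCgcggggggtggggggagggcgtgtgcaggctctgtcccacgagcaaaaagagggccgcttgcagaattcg
Counted from the gene's start, the core began at position -240 in Nfe2l2, -133 in Prdx1 and -79 in Mt2. In Prdx1 and Mt2 it overlapped a match to the AP-1 site TGANTCA, which 6.7% of promoters held. A match describes these letters only, and binding of NRF2 was not measured.

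Probes of the same gene disagreed for Prdx6 and Prdx4. Prdx6, a peroxiredoxin that reduces phospholipid peroxides, was read by 4 probes, and the tested one, A_52_P540855 on the minus strand at chr1:161209633-161209692 of mm7, is printed because the others departed from it:
Prdx6 probe: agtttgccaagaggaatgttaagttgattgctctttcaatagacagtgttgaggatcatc
This probe read 1.85, 1.69, 2.48 and 2.25 log2 with AngII+CsA, and 1.94, 1.88, 2.45 and 2.32 with AngII. Probe A_51_P496023, at chr1:161203565-161203624 on the same strand, read -1.11, -5.68, -5.11 and -5.43 with AngII+CsA, and -1.49, -5.52, -4.93 and -5.39 with AngII. It was above background on the arrays of replicate 1 alone, in both groups, while the tested probe was not brightest there. In the authors' deposited table the values of A_51_P496023 were 5.63, 1.25, 1.66 and 1.35 with AngII+CsA, and 5.22, 1.28, 1.88 and 1.30 with AngII. The 2 other Prdx6 probes were above background on 1 AngII+CsA and 1 AngII array and on no array.

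Prdx4, the peroxiredoxin of the endoplasmic reticulum, was bright on every array on its tested probe, with 6.18, 6.15, 7.15 and 6.73 log2 with AngII+CsA, and 6.43, 6.08, 7.21 and 6.73 with AngII. Its other probe, A_52_P313861 at chrX:150138058-150138117 on the minus strand of mm7, read -5.44, -2.59, -1.83 and -3.46 with AngII+CsA, and -5.37, -5.94, -4.77 and -4.13 with AngII. It was well above background on 3 AngII+CsA arrays, all but replicate 1, and on no AngII array. The differences within pairs were -0.07, 3.35, 2.94 and 0.67 log2 for replicates 1 to 4. The lowest signal above background on an AngII array ran from -3.88 to -3.03 log2. The AngII+CsA mean of -3.33 lay within that span, so no lower bound on the difference can be given. The probe was not tested. Sod1 had 1 bright probe, and its 2 other probes were above background on no array. Nfe2l2 had 2 bright probes and 2 that were above background on no array.

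**Figure D5:**
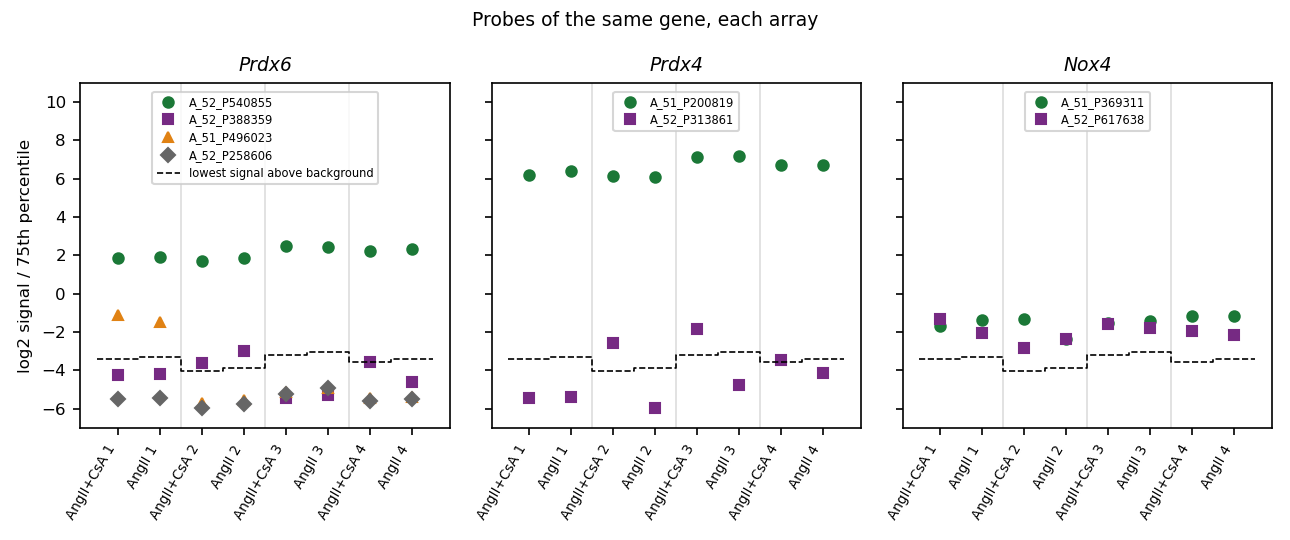
Log2 signal of each probe of Prdx6, Prdx4 and Nox4 on the 8 arrays, in pairs of replicate numbers with AngII+CsA left of AngII, with each array's dimmest signal still above background as a dashed line. Prdx6 probe A_51_P496023 lies above the line in number 1 only, Prdx4 probe A_52_P313861 on 3 AngII+CsA arrays only, and the 2 Nox4 probes cross from pair to pair.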

How the data were processed

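Total RNA of 8 cultures was labelled with Cy3 and hybridised to Agilent arrays of design 014868, read with Feature Extraction 9.5.3.1, per the file headers (protocol GE1-v5_95_Feb07). The deposited files give each spot's intensity on a linear scale, background-subtracted and detrended by that software. A deposited value table holds the authors' log2 values for these arrays; its method and scale are not given in the sources used here, and it served as an alternative.

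Outlier and control spots were left out, log2 processed signals were set relative to each array's 75th percentile, and spots of a probe were averaged. Probes above background on at least 4 of 8 arrays were kept (19532 of 41174), and each gene was represented by its brightest probe. Of the probes, 22951 were named through their accession in RefSeq's GRCm38.p6 table and 6659 carried a current symbol; members were matched by the name in the files. Probe coordinates are the files' own, in mm7, which states no exon or UTR for a probe.

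Tests were limma 3.58.1 (lmFit and eBayes) in R 4.3.3, two-sided, with adjusted p (Benjamini-Hochberg over all genes) called below 0.05. The main model had the groups only, and the replicate number as a block was an alternative; a moderated F test on the number terms gave the difference among numbers. Arrays sharing a number deviated together from their group means (correlations of 0.70 to 0.86, against -0.76 to 0.26 for other pairs) and shared slides per the file headers. They were therefore read as pairs in the descriptions and in the fit with the block. The main model left this pairing out, and it did not call even Rcan1. The block lowered the median residual SD to 0.184 log2 on 3 residual degrees of freedom, against 0.437 on 6 without it. Alternatives changed the background correction, scaling, filter, outlier spots, probe choice, variance model or source of values, or left out arrays. With 4 arrays a group, their number limits the precision.

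Genes named are all members, Rcan1, the 2 with the smallest p with the block in each further list, and, outside that rule and chosen after their values were seen, cell type markers above background on every array or on none. Members and lists were chosen with earlier results of these data known.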

Additional observations from a re-analysis of the deposited data

Results flagged for a closer look

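Gclc, the catalytic subunit of glutathione synthesis, was low in replicate 4. On the AngII+CsA array of replicate 4 its level was -0.32 log2, against 0.04 to 0.11 on the other 3 AngII+CsA arrays, a gap larger than a test for a single outlying value allows. The AngII array of replicate 4 was also the lowest of its group, at -0.57 log2 against -0.13 to 0.28, so both arrays of that number were low. The AngII+CsA arrays were 1 of 66 groups of 4 arrays examined, and chance alone marks about 1 in 20 such groups.

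Among probes that were too dim to be tested, those above background with AngII+CsA and on 0 AngII arrays were flagged. Prdx4 probe A_52_P313861 had a mean of -3.33 log2 over the AngII+CsA arrays and was above background on 3 of them and on 0 AngII arrays. Slc7a11 probe A_52_P663446 had a mean of -4.45 log2 over the AngII+CsA arrays, and was above background on 1 of them, replicate 3, where it read -0.92 log2, and on 0 AngII arrays. The rule took 1 direction only. In the other direction, Gsr probe A_52_P346738 was above background on 0 AngII+CsA and 2 AngII arrays. Gclm probe A_51_P320089 was above background on 0 AngII+CsA arrays and 1 AngII array.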

How the results depend on the processing

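The count of members called between AngII+CsA and AngII stayed at 0 under all settings run. With the replicate block it was 0 members (4 genes in all), and the block changed no member's call. The smallest member adjusted p under any setting, from limma, was 0.156, with normexp background correction and the block, where 8 members had an unadjusted p under 0.05 (26.8% of all genes). The median difference over the members was -0.04, and 0.0724 with normexp background correction, with or without the block. Leaving out 1 array it ran from -0.109 to 0.0909, the highest value without AngII replicate 3, and leaving out 1 number with the block from -0.04 to 0.02. The difference kept its sign under every setting and leave-out for 5 of 33 members (Duox2, Gpx1, Mt1, Mt3 and Txnip, though a dimmer Mt1 probe gave -0.06), and under the settings that kept all arrays for 19. Gpx1 ran from -0.35 to -0.22 over settings and from -0.52 to -0.17 with an array or number left out. The count of members that differed among numbers was 21 (68.5% of all genes). It was 26 with median scaling (77.9% of all genes) and 18 with normexp background correction (56.2%). It was 12 with quantile normalization (55.4% of all genes), 12 with the authors' table (54.7%), and 10 to 20 with 1 number left out: 20 without number 1 (62.4%), 10 without number 2 (53.5%), 11 without number 3 (54%) and 14 without number 4 (44.1%). Of the 12 called under all 5 scalings, leaving out a number kept 9 to 10, and those lost were Gpx7, Hmox1, Mt2, Nfe2l2, Prdx1, Prdx6 and Sod3. The cause of these changes was not tested. The number of arrays limits what can be seen; signals near background, as of Nox1 and Noxo1, limit it further.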
